A study of Rattus norvegicus with 7 samples.

Results

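The beta and gamma subunits of the GABA-A receptor covered here are Gabrb1, Gabrb2, Gabrg1 and Gabrg3. Members were taken as transcript probes whose RefSeq accession belongs to 1 of these 4 rat genes, and this gave 5 probes of 33849: 2 for Gabrb1 (GE20081 and GE22112) and 1 each for Gabrb2 (GE20082), Gabrg1 (GE22137) and Gabrg3 (GE1123485). All 5 lay above background on all 7 arrays and entered the test of 29003 probes. RNA came from the whole brain of adult male Wistar rats selectively bred as the alcohol-preferring (P) or the non-preferring (NP) line. All were housed in pairs and had been given no alcohol, and each array carried the RNA of 1 rat. The P line gave 4 rats (P 1 to P 4) and the NP line 3 (NP 2 to NP 4), from a single pair of selected lines. Whole brain averages over regions, and in such tissue fewer cells of a type and less RNA per cell cannot be told apart.

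GABA-A receptors are chloride channels made of 5 subunits around a pore, and they carry most of the fast inhibition in the brain. GABA binds where a beta subunit meets an alpha subunit, and benzodiazepines bind where a gamma subunit meets an alpha subunit. Beta subunits are needed for the receptor to reach the cell surface, and kinases act on their intracellular loops. Gamma subunits set benzodiazepine sensitivity and place receptors at synapses. Ethanol, anaesthetics and benzodiazepines all alter currents through these receptors, and in mouse, point mutations of Gabrb1 raise voluntary alcohol drinking.

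Called means an adjusted p under 0.05 in limma, and none of the 5 probes was called between P and NP. Over all probes tested, 84 of 29003 were called, which is 0.29%. The P minus NP differences ran from -0.26 for Gabrb2 to 0.12 for Gabrg3 on the log2 scale, with Gabrg1 at -0.19 and the 2 Gabrb1 probes at -0.11 and -0.04. Only the Gabrg1 probe had P and NP values that did not overlap, 1 of 5 probes, where 13.3% of all probes with 7 values did not overlap. The Gabrb1 probes varied most among the P rats, with P 1 and P 2 low and P 3 and P 4 high on both.

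The arrays carried 3 dates in the headers of their scanner files, called file dates here. P 1, P 2, NP 2 and NP 3 shared date 1, P 3 and P 4 had date 3, and NP 4 had date 2, so both lines were present on date 1 only. Between 77.9% and 81.6% of probes lay above background in P rats and between 81.5% and 85.9% in NP rats. Inside the P line, the date 1 pair and the date 3 pair differed at 4003 of 28923 probes (13.8%). The differences of the 5 beta and gamma probes are therefore given over all arrays and within date 1. The number of arrays limits the precision.

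Gabrb1 encodes the beta 1 subunit, which is found in neurons and also in astrocytes. It is shown here with Gabrb2, the beta 2 subunit of the most widespread receptors of the brain, because their promoters shared letters. Promoters came from RefSeq (GRCr8) and span 250 bases before to 50 after the annotated start, and all 4 genes had an entry. Capitals mark runs of 10 or more bases that both sequences hold on the same strand.
Gabrb1, chr14:36902844-36903143, minus strand: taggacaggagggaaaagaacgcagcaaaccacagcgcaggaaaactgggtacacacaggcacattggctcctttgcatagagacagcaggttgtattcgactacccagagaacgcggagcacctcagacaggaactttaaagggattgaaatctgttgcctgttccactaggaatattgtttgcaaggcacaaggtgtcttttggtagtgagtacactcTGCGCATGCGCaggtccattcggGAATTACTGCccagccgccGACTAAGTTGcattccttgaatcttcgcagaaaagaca
Gabrb2, chr10:27439543-27439842, plus strand: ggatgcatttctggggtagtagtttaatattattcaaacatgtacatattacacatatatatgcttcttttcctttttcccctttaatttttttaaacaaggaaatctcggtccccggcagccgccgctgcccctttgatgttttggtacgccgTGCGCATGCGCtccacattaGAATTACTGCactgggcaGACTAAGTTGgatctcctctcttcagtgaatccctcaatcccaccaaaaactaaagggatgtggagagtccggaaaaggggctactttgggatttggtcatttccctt

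The 2 promoters shared 3 such runs in the same order, TGCGCATGCGC, GAATTACTGC and GACTAAGTTG. They began at positions -30, -7 and 13 from the start in Gabrb1 and at -96, -76 and -58 in Gabrb2. On either strand, the first run was found in 200 of 33469 rat promoters (0.598%), the second in 13 (0.0388%) and the third in 5 (0.0149%). Gabrb1 and Gabrb2 were the 2 promoters that held all 3, and no other promoter held 2 of them. The first run contains GCGCATGCGC, its longest stretch that reads the same on both strands, which is also the letters of the binding motif of nuclear respiratory factor 1 (NRF1), and 0.852% of promoters held it. No run of 10 bases was shared on the same strand by any other pair of the 4 promoters. TATAAA and TGACGTCA were found on neither strand of the 4 promoters, while 14.2% and 1.83% of all promoters held them. Gabrg3 stood apart in base composition with 76.7% GC and 37 CpG, and its promoter held GGGCGG 2 times, a motif in 33.1% of all promoters on either strand. GC was 49.3% in Gabrb1, 44% in Gabrb2 and 48.7% in Gabrg1, against a median of 51.7% over all promoters. The comparison of promoters was chosen after these sequences were seen, and a match of letters is a description.

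Probe GE20081 of Gabrb1 read 10.61, 10.32, 10.80 and 10.99 in P 1 to P 4, against 10.81, 10.92 and 10.65 in NP 2 to NP 4, in log2 normalized intensity. P 1 and P 2 lay below every NP rat, P 3 lay among them and P 4 above them, so the groups overlapped. The mean was 10.68 ± 0.28 in the 4 P rats and 10.79 ± 0.14 in the 3 NP rats (SD). The difference was -0.11 ± 0.16 (SE, limma adjusted p = 0.798), with a 95% interval of -0.47 to 0.25, that is, a P level of 0.722 to 1.19 times the NP level. Before normalization the spot read 1402, 959.9, 2371.1 and 2456.9 intensity units in P 1 to P 4, against 1734.3, 1746.4 and 1725.8 in NP 2 to NP 4, over a local background of 48 to 71.

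The second Gabrb1 probe, GE22112, read 8.09, 7.87, 8.62 and 8.60 in P 1 to P 4, against 8.27, 8.35 and 8.39 in NP 2 to NP 4. Here P 1 and P 2 lay below all NP rats and P 3 and P 4 above all of them. P averaged 8.30 ± 0.37 (SD, n = 4) and NP 8.34 ± 0.06 (SD, n = 3), a difference of -0.04 ± 0.19 (SE, limma adjusted p = 0.944). The line differences of the 2 probes differed by -0.07, where the gap between the probes had an SD of 0.15 in P and 0.17 in NP rats. An exact permutation test of this gap between the lines, over the 35 splits of the arrays, gave a two-sided p = 0.543. The smallest possible is 0.0286, and the test takes no account of the file dates. The brightness of a probe depends on its own sequence as well as on the transcript, so the levels of the 2 probes were not set against each other.

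Within date 1, both probes were lower in P by about the same amount, with differences of -0.40 ± 0.14 for GE20081 (limma adjusted p = 0.116) and -0.33 ± 0.13 for GE22112 (limma adjusted p = 0.154). Neither passed, while 6.47% of all probes were called there. With the file date as a block over all 7 arrays the differences were the same by design, since only date 1 held both lines. This block is therefore no second estimate. With it 0 of 5 probes were called, and 5.72% of all probes were. Without P 1 and P 2, where 0.652% of all probes were called, the differences were instead 0.10 (limma adjusted p = 0.737) and 0.27 (limma adjusted p = 0.298). With P 3 and P 4 left out, where 11.5% were called, they were -0.32 (limma adjusted p = 0.155) and -0.36 (limma adjusted p = 0.098). The sign of the line difference of Gabrb1 therefore changed with the P rats that entered. These pairs were left out after the data were seen. For GE22112 the change of sign restates that P 1 and P 2 lay below and P 3 and P 4 above all NP rats.

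Among the P rats, GE22112 fell by 0.63 ± 0.14 in P 1 and P 2 relative to P 3 and P 4 (limma adjusted p = 0.0206). In this contrast, added after the data were seen, 13.8% of all probes were called. GE20081 differed by -0.43 ± 0.16 in the same direction (limma adjusted p = 0.096). The call for GE22112 was lost in the authors' processed values (-0.81, limma adjusted p = 0.108), where only 2 probes of the array were called. It was also lost with plain background subtraction (-0.76, limma adjusted p = 0.104), where 0 of 28923 probes were called. With limma's intensity trend in the prior, the authors' values kept the call (-0.81, limma adjusted p = 0.0286), and 3295 of 28923 probes were called there. Rat and file date cannot be told apart here. For the other genes the same contrast gave -0.07 ± 0.15 for Gabrb2, 0.10 ± 0.14 for Gabrg1 and 0.18 ± 0.15 for Gabrg3 (limma adjusted p = 0.772, 0.678 and 0.468).

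**Figure D1:**
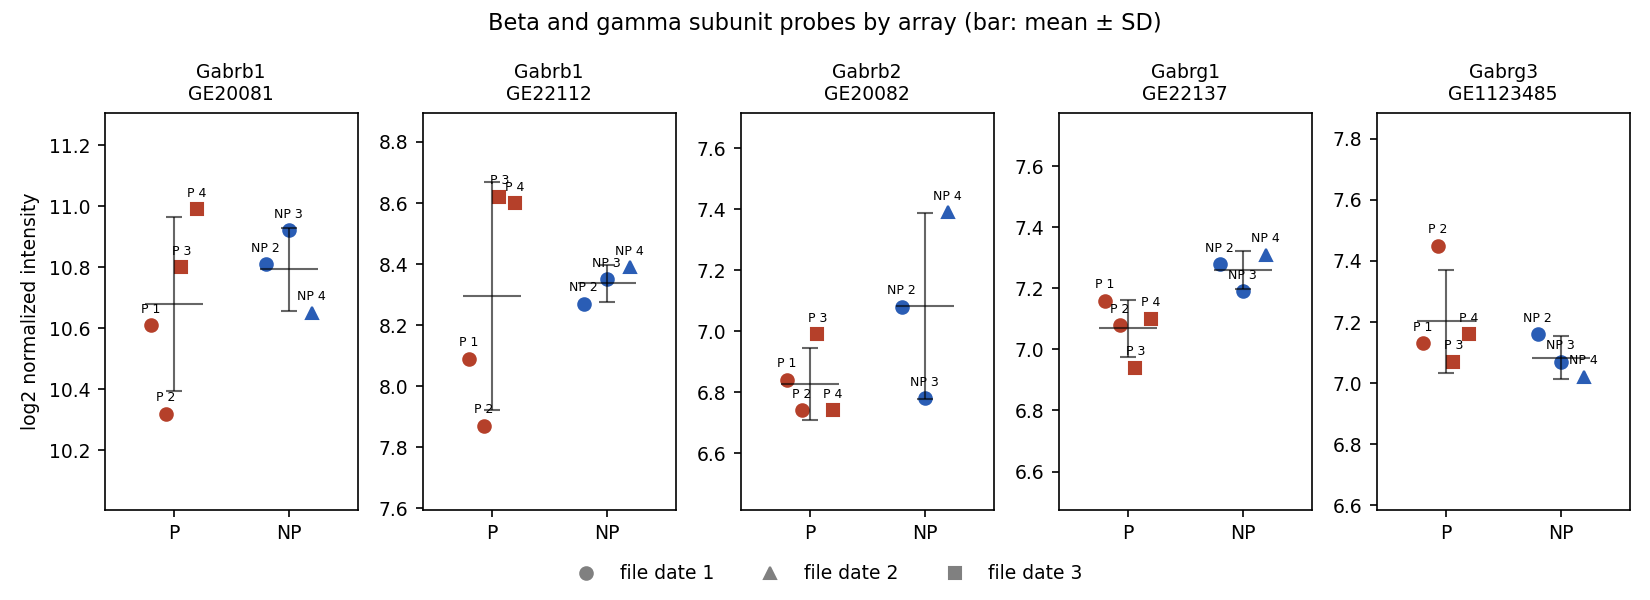
Log2 normalized intensity of each of the 5 probes by array, with P left and NP right. Points are rats, their shape gives the file date, bars are the mean ± SD, and every panel spans the same height. P 1 and P 2 sit below and P 4 above all NP rats on both Gabrb1 probes, and Gabrg1 is the probe whose groups do not overlap.

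The Gabrb2 probe GE20082 read 6.84, 6.74, 6.99 and 6.74 in P 1 to P 4, against 7.08, 6.78 and 7.39 in NP 2 to NP 4. NP 4 was the highest rat and NP 3 lay among the P rats, so the groups overlapped. P rats averaged 6.83 ± 0.12 (SD, n = 4) and NP rats 7.08 ± 0.31 (SD, n = 3), a difference of -0.26 ± 0.15 (SE, limma adjusted p = 0.521). Its 95% interval ran from -0.60 to 0.08, or a P level of 0.661 to 1.06 times the NP level. The size of the difference turned on NP 3 and NP 4. It was -0.41 (limma adjusted p = 0.547) without NP 3 and -0.10 (limma adjusted p = 0.924) without NP 4, which is also the only array of date 2. Within date 1 it was -0.14 ± 0.14 (limma adjusted p = 0.561). The signal was low, with 103.5 to 166.6 intensity units in P and 121.8 to 186.1 in NP over a local background of 60 to 74. Negative control spots had medians of 6.19 to 6.33 in log2 before normalization between arrays.

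Gabrg1 encodes the gamma 1 subunit, which has low levels in most of the brain and is also made by Bergmann glia of the cerebellum, and receptors that hold it respond weakly to diazepam. Its probe GE22137 read 7.16, 7.08, 6.94 and 7.10 in P 1 to P 4, against 7.28, 7.19 and 7.31 in NP 2 to NP 4. All 4 P rats lay below all 3 NP rats, with a gap of 0.03 between the nearest, P 1 and NP 3. P averaged 7.07 ± 0.09 (SD, n = 4) and NP 7.26 ± 0.06 (SD, n = 3). The difference of -0.19 ± 0.11 did not pass (limma adjusted p = 0.515), and its 95% interval ran from -0.43 to 0.06, or a P level of 0.741 to 1.04 times the NP level. Leaving out 1 array at a time gave -0.22 to -0.15, with limma adjusted p from 0.522 to 0.86. Within date 1 the difference was -0.12 ± 0.13 (limma adjusted p = 0.586).

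Gabrg3, the gamma 3 subunit, read 7.13, 7.45, 7.07 and 7.16 in P 1 to P 4, against 7.16, 7.07 and 7.02 in NP 2 to NP 4. P 2 was the highest rat and the others overlapped. P averaged 7.20 ± 0.17 (SD, n = 4) and NP 7.08 ± 0.07 (SD, n = 3), a difference of 0.12 ± 0.13 (SE, limma adjusted p = 0.708). The 95% interval ran from -0.16 to 0.40, or a P level of 0.897 to 1.32 times the NP level. Without P 2 it was 0.04 (limma adjusted p = 0.925), and within date 1 it was 0.18 ± 0.15 (limma adjusted p = 0.453). Both gamma probes were dim, with spots of 118.2 to 188.6 intensity units in P and 137 to 162.6 in NP.

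The authors' processed values gave differences of the same signs, -0.12 and -0.06 for the Gabrb1 probes, -0.39 for Gabrb2, -0.28 for Gabrg1 and 0.18 for Gabrg3, and none passed (limma adjusted p from 0.496 to 0.934). The offset of 50 in the normexp values draws low signals together. For Gabrb2, Gabrg1 and Gabrg3 the differences were -0.35, -0.25 and 0.16 with offset 16. With no background correction they were -0.24, -0.14 and 0.16. The SE of Gabrb2 was 0.15 in the normexp values and 0.24 in the authors' values. Which scale lies nearest the true size was not tested.

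**Figure D2:**
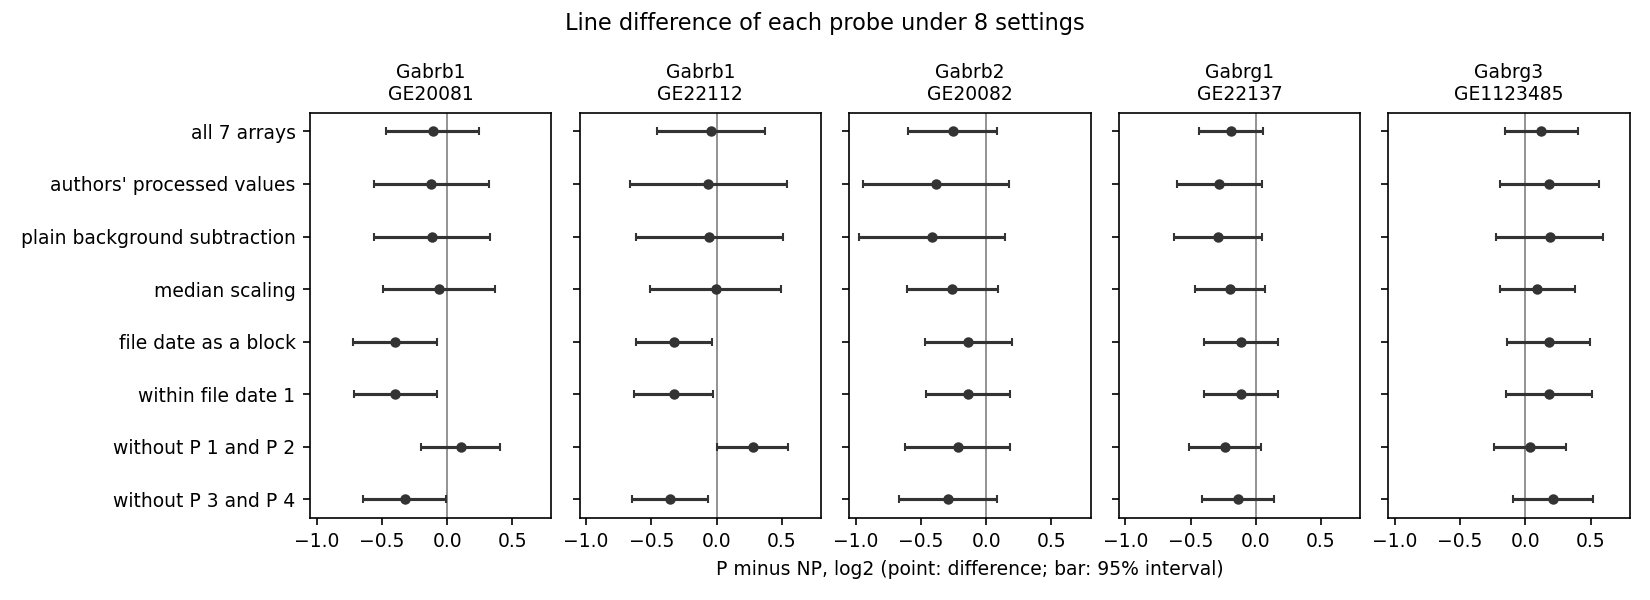
P minus NP difference of each probe in log2, one panel a probe, with 1 row for each of 8 settings. Points are limma differences and bars their 95% intervals, not adjusted for the number of probes. The rows for the file date as a block and within date 1 hold the same differences, since only date 1 held both lines. The Gabrb1 probes lie at -0.40 and -0.33 within date 1 and at 0.10 and 0.27 without P 1 and P 2, while Gabrb2 and Gabrg1 stay below 0 and Gabrg3 above 0 in all 8 rows.

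GABA-A subunit genes lie in clusters, and the annotation places all 4 genes near other subunits. Gabrb1 has Gabra4, the alpha 4 subunit of extrasynaptic receptors, as its next protein-coding gene on chromosome 14, and 3 protein-coding genes separate it from Gabrg1. Gabra4 differed by 0.28 ± 0.13 (limma adjusted p = 0.447), and by 0.12 within date 1 (limma adjusted p = 0.59), opposite in sign to Gabrb1 and Gabrg1 over the 7 arrays. On chromosome 10, Gabrb2 lies next to Gabra6, an alpha subunit of cerebellar granule cells (-0.18 ± 0.12, limma adjusted p = 0.567, and -0.26 within date 1). Gabrg3 lies next to Gabra5 on chromosome 1, an alpha subunit of hippocampal extrasynaptic receptors. Gabra5 differed by -0.42 ± 0.11 (limma adjusted p = 0.245), against 0.12 ± 0.13 for Gabrg3. Gabra5 and Gabra4 had no overlap between the lines, as was so for 13.3% of all probes with 7 values. Within date 1, Gabra5 differed by -0.42 (limma adjusted p = 0.0777). None of these neighbours passed.

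Likeness was measured as the root mean square difference between log2 profiles over the 7 arrays, each centred on its mean, across 4638 other named genes. The closest to Gabrb1 were Fam133b, Pigk and Adi1 (0.06 each, against a median of 0.28 over all genes). Zfp518a, Cntn3 and Gpr149 were closest to Gabrb2 (0.06 to 0.08), P2rx5, Crkl and Ces1e to Gabrg1 (0.03 to 0.05), and Mapk3, Noa1 and Or5a3 to Gabrg3 (0.05 to 0.06). Among the 4 genes themselves the values ran from 0.19 between Gabrb2 and Gabrg1 to 0.31 between Gabrb2 and Gabrg3. The medians over all genes were 0.28 for Gabrb1, 0.31 for Gabrb2, 0.22 for Gabrg1 and 0.21 for Gabrg3. The closest genes were picked as the smallest values, so the pairs are not set against them. These profiles share the arrays, their dates and their normalization, and with 4638 genes some are close on 7 arrays whatever they do.

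The other genes of GABA-A signalling were read from 5 lists, and none of their genes was called over all 7 arrays. Of 15 other subunits 13 were tested, with a median difference of 0.06 against 0.01 over all probes, and -0.09 within date 1. The smallest p there were those of Gabra5, given above, and Gabrd, the delta subunit of extrasynaptic receptors (0.55 ± 0.14, limma adjusted p = 0.259). Gabrd had no overlap between the lines either, but it was picked for its small p, which favours groups that do not overlap. Of 22 genes of receptor assembly, anchoring and traffic, 11 were tested (median -0.08, and -0.11 within date 1). Plcl1, a phosphatase-binding partner of beta and gamma subunits, differed by -0.35 ± 0.16 (limma adjusted p = 0.44) and Rdx, the anchor of alpha 5 receptors, by -0.36 ± 0.19 (limma adjusted p = 0.467).

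Of 18 kinases, phosphatases and anchors that act on beta and gamma subunits, 12 were tested (median 0.06, and 0.08 within date 1). Camk2b, a calcium/calmodulin kinase subunit, differed by 0.71 ± 0.14 (limma adjusted p = 0.0912) and Rack1, a protein kinase C anchor, by 0.38 ± 0.11 (limma adjusted p = 0.294). Neither overlapped between the lines, as was so for 13.3% of all probes with 7 values. Genes picked for a small p tend not to overlap, so this share is no like comparison for them. Of 11 genes of GABA synthesis, uptake, breakdown and GABA-B receptors, 10 were tested (median 0.11, and 0.15 within date 1). The GABA transporter Slc6a13 differed by 0.73 ± 0.15 (limma adjusted p = 0.112) and Gad2, a GABA-synthesizing enzyme, by -0.33 ± 0.11 (limma adjusted p = 0.34). Both also had no overlap between the lines, and were picked in the same way. Of 7 genes that set the chloride gradient, 5 were tested (median -0.23, and -0.11 within date 1), with the kinase Stk39 at -0.38 ± 0.16 (limma adjusted p = 0.412) and the chloride importer Slc12a2 at -0.36 ± 0.19 (limma adjusted p = 0.479).

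Within date 1, where 6.47% of all probes were called, 1 of 13 other subunits and 2 of 12 kinases, phosphatases and anchors were called. So was 1 of 10 genes of the GABA synthesis list, with 0 of 11 for assembly and 0 of 5 for the chloride gradient. Camk2b (0.64, limma adjusted p = 0.0387) and Slc6a13 (0.72, limma adjusted p = 0.0473) were higher in P. Ppp3cb, a calcineurin catalytic subunit, was lower in P (-0.95, limma adjusted p = 0.0148), where the P rats were P 1 and P 2. It differed by -0.66 over 7 arrays (limma adjusted p = 0.382). P 1 and P 2 minus P 3 and P 4 gave -0.85 (limma adjusted p = 0.0102). Ppp3cb was named after its values were seen.

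**Figure D3:**
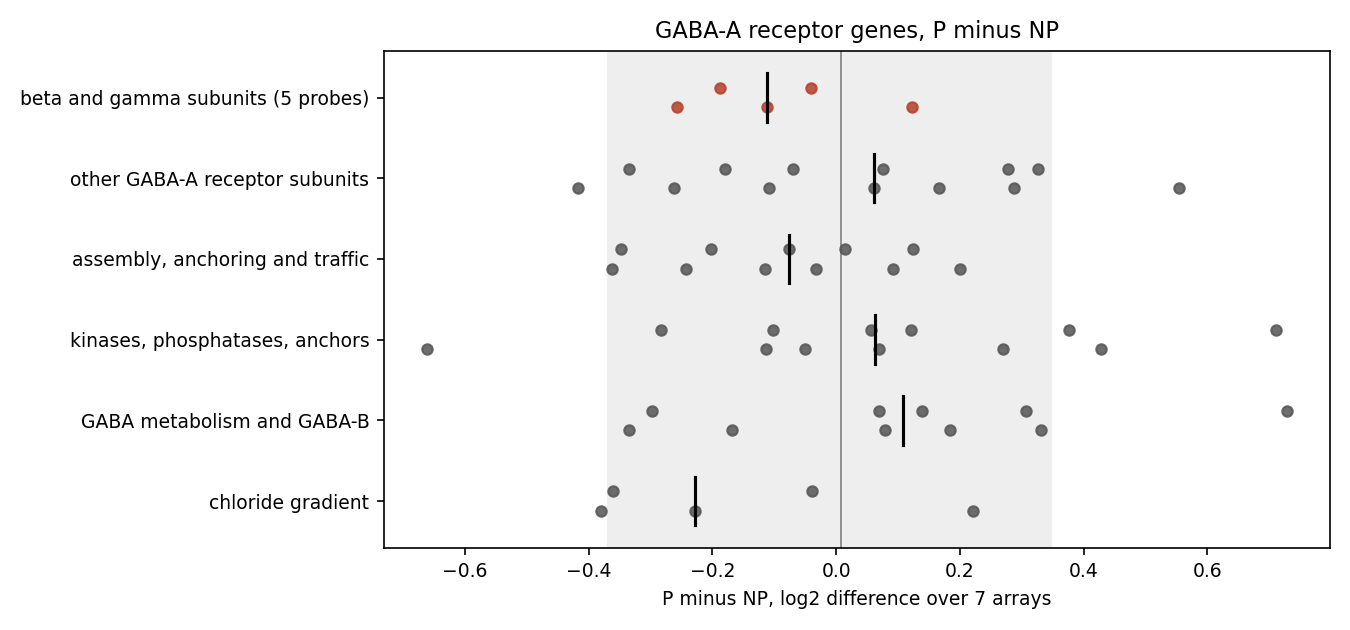
P minus NP difference in log2 over 7 arrays for the 5 beta and gamma probes (red) and for 1 probe per gene of the 5 lists (grey), with black bars at each median. The grey band holds the middle 90% of all 29003 probes, from -0.37 to 0.35, and the vertical line their median of 0.01. All 5 beta and gamma probes lie inside the band.

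Markers of the cell types that whole brain holds were checked beside these genes, and none was called between the lines over 7 arrays. Of the 5 neuron markers, 3 lay above background on all arrays, while Snap25 did so on 1 of 4 P and 2 of 3 NP arrays. Stmn2 lay above background on the 1 P and 2 NP arrays where it had a value, and its spots on the other 4 arrays were missing. All 8 tested astrocyte markers did so on every array. By list, median difference and the member with the smallest p, neurons had -0.09 (Uchl1, 0.37 ± 0.17), a median that is the value of Stmn2 from 1 P and 2 NP rats. Over the 3 neuron markers above background on every array it was 0.01, and over all 5 with median scaling it was 0.06. Astrocytes had 0.02 (Aqp4, -0.45 ± 0.19), oligodendrocytes 0.08 (Mog, -0.45 ± 0.16, in 2 P and 3 NP rats) and microglia -0.04 (Aif1, -0.81 ± 0.24). Vascular cells had 0.04 (Cldn5, 0.13 ± 0.13), choroid plexus -0.07 (Kcne2, -0.32 ± 0.13), erythroid cells 0.30 (Alas2, 0.38 ± 0.25), cerebellum -0.03 (Zic1, 0.37 ± 0.14) and interneurons 0.08 (Gad2, as above). Within date 1 the medians of neurons, astrocytes, oligodendrocytes and microglia were 0.01, -0.01, -0.02 and 0.01.

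In the contrast within the P line that called GE22112, 5 of 44 markers (11.4%) were called, near the 13.8% of all probes. There 1 of 4 neuron markers was called, Nefm at -1.21 (limma adjusted p = 0.0048), and 2 of 8 astrocyte markers, Gfap at 0.71 and Aldh1l1 at 0.56 (limma adjusted p = 0.0141 and 0.0309). Of 7 microglia markers 2 were called, Aif1 at -0.75 and Cd68 at 0.60, and no marker of the other 6 lists was. The 4 neuron markers with a value on every array summed to 13.38 and 13.33 in P 1 and P 2, in log2. In P 3 and P 4 the sums were 13.40 and 13.60, and in NP rats 12.95 to 13.41. Uchl1 was the brightest of them, with means of 12.72 in P 1 and P 2 and 12.73 in P 3 and P 4. Nefm averaged 9.89 and 11.10 there, so the sum mostly follows Uchl1 and is no measure of neuron content. The 8 astrocyte markers summed to 14.12 and 14.09 in P 1 and P 2, against 14.04 and 14.21 in P 3 and P 4, and to 14.06 to 14.18 in NP rats. The median spot intensity before normalization was 148.5 and 126.3 on P 1 and P 2, against 192.3 and 186.6 on P 3 and P 4, and 149.8 to 165.6 on NP arrays. Within date 1, 4 of 45 markers (8.89%) were called between P and NP, near the 6.47% of all probes, with Nefm at -0.81, Aif1 at -1.23, Calb1 of Purkinje cells at -0.73 and Zic1 of cerebellar granule cells at 0.56 (limma adjusted p from 0.0138 to 0.0474), named after their values were seen. The part of these values in the Gabrb1 results was not tested.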

How the data were processed

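Biotin-labelled RNA of single rats went onto 1-colour arrays, per the labels' protocols. The deposited scanner tables hold, per the file headers, the mean spot intensity and the median local background intensity of each spot, with a quality flag. The authors also deposited log2 values, whose making, like the scanner software and genome build, is not stated in the sources used here. Set against log2 scaled intensities array by array, they correlated at 0.9985 or above, with array medians from -0.07 to 0.05. A further adjustment between arrays is unknown.

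With R 4.3.3 and limma 3.58.1, intensities went through normexp background correction (offset 50) and quantile normalization over transcript probes. Masked, irregular and contaminated spots became missing values. A probe needed a signal above background on 3 or more arrays, which kept 29008, of which 29003 could be fitted. P minus NP was tested with lmFit and eBayes and no block, adjusted by Benjamini-Hochberg over all probes. Accessions were matched without versions to RefSeq transcripts (GRCr8), which named 7207 probes. The brightest probe stood for a gene in lists. The fit was tested on simulated data. Figures used matplotlib 3.10.9.

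Named are all member probes, the 2 genes with the smallest p in each list without a call, neighbouring subunit genes, the 3 closest genes by profile, and 1 marker per list. Some genes under these rules are not reported here. The members, lists and rules were chosen with earlier results of these data known.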

Additional observations from a re-analysis of the deposited data

Results flagged for a closer look

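The value of Gabra4 in P 4 (10.05 in log2 intensity) lay far above those of the other P rats (9.73 to 9.75). The value of Slc6a11, an astrocytic GABA transporter, in P 2 (8.21) likewise lay above the others (7.84 to 7.86). Among 55 sets of 4 P values tested for such a lone sample, 2 were found, where chance gives about 2.75, and none of the 5 beta and gamma probes was among them. Groups of 3, as in NP, were left out.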

How the results depend on the processing

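None of the 5 beta and gamma probes was called between the lines under any of the 24 alternatives. Gabrb2 and Gabrg1 kept a negative and Gabrg3 a positive difference in all of them. Gabrb1 (GE20081) was reversed to 0.0071 without P 2 and to 0.10 without P 1 and P 2. Leaving out 1 array at a time, it ran from -0.21 to 0.0071, and GE22112 from -0.15 to 0.10. Probe GE22112 of Gabrb1 was reversed to 0.029 without P 1 and with the replicate number as a block, to 0.10 without P 2, and to 0.27 without P 1 and P 2. Replicate number 1 exists in P only, so the replicate block and leaving out P 1 give the same differences by design. The file date block and the fit within date 1 likewise share theirs. With the replicate block Gabrb1 differed by -0.09, Gabrb2 by -0.26, Gabrg1 by -0.22 and Gabrg3 by 0.15, and 104 probes were called over the array, none of them a beta or gamma probe. Same-numbered rats deviated together only weakly (r = 0.10, 0.06 and 0.02), and differently numbered rats had r from -0.32 to 0.36. With so few rats, and numbers tied to file dates, these values cannot show whether the rats were paired. The numbers were not taken as pairs. Within the P line, GE20081 passed with median scaling (-0.61, limma adjusted p = 0.0306), where 5505 of 28923 probes were called. Gabrb2 was reversed there (0.0632). GE22112 missed the threshold with offset 16 (-0.71, limma adjusted p = 0.0503), where 2267 of 28923 probes were called.

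In the lists, where 0 genes were called, the count with file date as a block was 1 for other subunits, 2 for kinases and phosphatases (Camk2b, Ppp3cb), 1 for GABA metabolism (Slc6a13) and 1 for the chloride gradient (Slc12a2). Within date 1 it was 1, 2, 1 and 0. Without P 3 and P 4 it was 3 (Gabra5 and Gabrd among them), 3 (Src, Camk2b, Ppp3cb), 2 (Slc32a1, Slc6a13), 1 (Slc12a2), and 1 for assembly and traffic (Plcl1). Camk2b was the 1 call with array weights and without P 1 and P 2, and leaving out 1 array gave 0 to 1 (without P 2). Over the array, calls numbered 84, against 30 without normalization between arrays, 49 for probes above background everywhere, 51 in the authors' values, 154 with array weights, 1655 with file date as a block, 189 without P 1 and P 2 and 3318 without P 3 and P 4. Leaving out 1 array gave 51 to 121. The causes were not tested. Leaving out pairs of P rats and the contrast within the P line were added after seeing the data. Low signal over background limits Gabrb2, Gabrg1 and Gabrg3.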
